A study of Mus musculus with 34 samples.

Results

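*Unc13c*, *Slc35f1*, *F8*, *Gria4* and *Fat3* were examined as the genes most raised by RGLS4326 in polycystic mouse kidney. They were chosen by their p-value among raised genes in RGLS4326 vs PBS, and are 5 of the 15644 genes tested and of the 23509 genes in the count tables. In the fit used here, the 5 genes ranked from 2 to 6 by p, because *Mink1* had a smaller p (1.35e-09) at a log2 fold change of 0.40. The last gene inside the list was *Fat3* (p = 1.10e-07). The next raised genes were *Ginm1* (p = 1.52e-07, log2 fold change 0.34), *Naalad2* (0.75), *Ecm2* (0.79) and *Jam3* (0.34). These p-values come from edgeR's quasi-likelihood test and describe how the genes were picked.

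PolyA RNA of whole kidney was sequenced in 34 C57BL6 mice harvested on P28 (postnatal day 28). Of these, 11 *Pkd2*-KO mice received RGLS4326 subcutaneously at 20 mg per kg on P10, P11, P12 and P19, 11 *Pkd2*-KO mice received PBS on those days, and 12 non-transgenic mice were left untreated (UNT). Both *Pkd2*-KO groups thus share the gene defect and the injections, and differ in the oligonucleotide, whereas UNT mice have neither. A control oligonucleotide was not analysed here. The genotype label reads "Pdk2KO". By the study's account, *Pkd2*-KO mice carry floxed *Pkd2* and Cre under *Pkhd1*, a gene of renal tubules and chiefly of collecting ducts, so other kidney cells may retain the gene. For its RNA sequencing the study's text counts fewer PBS-treated *Pkd2*-KO kidneys than the 11 labelled PBS here, and which of them it used is not given in the sources used here. The labels number the mice within each group and name no litter.

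RGLS4326 is a short, chemically modified oligonucleotide that binds the seed of miR-17 and thereby blocks the miR-17 family. A microRNA guides Argonaute to mRNAs, mostly through pairing of its seed with sites in the 3′UTR, and lowers their level and translation. Of the 5 genes, *Unc13c* encodes a member of the Munc13 family, which primes vesicles for fusion at synapses. *Slc35f1* encodes an orphan member of the SLC35 solute carrier family. *F8* encodes coagulation factor VIII, which is made by endothelial cells and circulates bound to von Willebrand factor. *Gria4* encodes the GluA4 subunit of the AMPA receptor, a glutamate-gated cation channel, and *Fat3* encodes a giant atypical cadherin. In a kidney these are genes of low abundance, and bulk RNA cannot tell fewer cells of a type from less RNA per cell.

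The seed of miR-17-5p is shown first, because only 1 of the 5 genes carried a match to it. The mature sequence, from RefSeq on GRCm38.p6 (chr14:115043684-115043706, plus strand), has its seed, bases 2 to 8, in capitals. Below it is the only match found in the longest annotated 3′UTRs of the 5 genes, with 11 bases on each side and the 7 bases that pair with the seed in capitals.
mmu-miR-17-5p: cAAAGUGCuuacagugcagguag
*Slc35f1* 3′UTR: tgaaaagtctgGCACTTTgatcacactca

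The miR-17 family members miR-20a-5p, miR-20b-5p, miR-93-5p, miR-106a-5p and miR-106b-5p carry the same seed, AAAGUGC. The site in *Slc35f1* (GRCm38 chr10:53109470-53109476, plus strand) starts at base 1098 of a 3′UTR of 3250 bases and is of the 7mer-m8 type. No match was found in the 3′UTR of *Unc13c* (1448 bases), *F8* (140 bases), *Gria4* (2256 bases) or *Fat3* (4810 bases). The search covered the transcript strand for GCACTTT (7mer-m8) and CACTTTA (7mer-A1), which overlap in the 8mer that holds both. Of 14198 tested genes with an annotated 3′UTR, whose lengths differ, 3113 (21.9%) had a match, so 1 of 5 is close to that share.

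All 5 are protein-coding genes of the GENCODE M21 annotation of GRCm38. *Unc13c* lies on the minus strand of chromosome 9 (chr9:73479422-73968966), as do *Gria4* (chr9:4417896-4796234) and *Fat3* (chr9:15910189-16501285). *Slc35f1* is at chr10:52690533-53111622 on the plus strand and *F8* at chrX:75172715-75382615 on the minus strand. Exons of *Gria4* overlap *Gm23811* on the same strand, so its counts are uncertain. The other 4 genes overlap no exon of another gene.

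Libraries held between 17603122 and 54981992 reads in genes. *Pkd2*, the gene named in the model, was at 220 to 338 CPM (read counts brought to a common library size by TMM factors) in UNT, 98.03 to 215 CPM in PBS and 170.0 to 237 CPM in RGLS4326 libraries, with no overlap between PBS and UNT. *Pdk2*, the gene spelled in the label, was also lower, at 86.8 to 152 CPM in PBS against 217 to 365 CPM in UNT libraries. The numbering of the deposited tables restarts, which divides the libraries into 3 sets of mixed groups. Reads in no gene made up 9.84 to 11.3% of reads in UNT and 5.18 to 8.995% in PBS libraries, and 4 RGLS4326 libraries (3 of set 2 and 1 of set 3) were at 11.3 to 12.0%, above every PBS library. In 2 PBS libraries *Th* and *Dbh*, enzymes of catecholamine synthesis, reached 7.63 to 10.8 CPM, against at most 0.727 CPM in the other 32.

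*Unc13c* fell in cystic kidney and was raised by RGLS4326 to a level still below normal. It ranged from 5.17 to 7.82 CPM with a median of 6.60 CPM in the 12 UNT kidneys. In the 11 PBS kidneys it ranged from 1.18 to 3.41 CPM with a median of 2.10 CPM, and in the 11 RGLS4326 kidneys from 2.60 to 5.95 CPM with a median of 4.31 CPM. No PBS kidney reached the UNT range, 10 of 11 treated kidneys lay above every PBS kidney, and 9 of 11 lay below every UNT kidney. The means were 6.54 ± 0.871 (SD, n = 12), 2.14 ± 0.714 (n = 11) and 4.36 ± 0.959 CPM (n = 11) in UNT, PBS and RGLS4326. The level in RGLS4326 was 2.04-fold that in PBS (log2 fold change 1.03, SE 0.15), a difference that chose the gene and is given as a description.

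*Slc35f1*, the gene with the seed match, followed the same course. It ranged from 6.22 to 9.38 CPM with a median of 7.36 CPM in UNT, from 1.36 to 3.56 CPM with a median of 2.41 CPM in PBS, and from 3.20 to 4.77 CPM with a median of 4.36 CPM in RGLS4326 kidneys. No PBS or RGLS4326 kidney reached the lowest UNT kidney, and 10 of 11 treated kidneys lay above every PBS kidney. Its means were 7.46 ± 0.98 (n = 12), 2.44 ± 0.658 (n = 11) and 4.22 ± 0.44 CPM (n = 11) in UNT, PBS and RGLS4326. As a description, the level in RGLS4326 was 1.72-fold that in PBS (log2 fold change 0.79, SE 0.12). The treated kidneys had the narrowest spread of the 3 groups.

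*F8* stood at about the same level in normal and in PBS-treated cystic kidney and above both after RGLS4326. It ranged from 9.26 to 14.1 CPM with a median of 11.4 CPM in UNT, from 7.54 to 13.9 CPM with a median of 10.5 CPM in PBS, and from 11.9 to 21.1 CPM with a median of 16.1 CPM in RGLS4326 kidneys. The UNT and PBS ranges lay over each other, while 10 of 11 treated kidneys were above every UNT and every PBS kidney. Means were 11.4 ± 1.24 (n = 12), 10.5 ± 2.09 (n = 11) and 16.5 ± 2.40 CPM (n = 11). RGLS4326 vs PBS was 1.57-fold (log2 fold change 0.65, SE 0.10, a description).

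*Gria4* was higher in cystic than in normal kidney and higher again after treatment. Its values ran from 5.58 to 8.53 CPM with a median of 6.71 CPM in UNT, from 6.12 to 13.3 CPM with a median of 9.14 CPM in PBS, and from 11.2 to 23.7 CPM with a median of 17.3 CPM in RGLS4326 kidneys. Of the PBS kidneys, 8 of 11 were above every UNT kidney. Every treated kidney was above every UNT kidney, and 8 of 11 were above every PBS kidney. Mean levels were 6.82 ± 0.906 (n = 12), 9.48 ± 2.03 (n = 11) and 16.5 ± 3.91 CPM (n = 11), and RGLS4326 vs PBS was 1.74-fold (log2 fold change 0.80, SE 0.12, a description).

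*Fat3* had the fewest reads and the largest fold difference of the 5 genes. It ranged from 0.413 to 2.47 CPM with a median of 1.31 CPM in UNT, from 0.545 to 2.71 CPM with a median of 1.26 CPM in PBS, and from 2.77 to 5.63 CPM with a median of 3.77 CPM in RGLS4326 kidneys. Every treated kidney was above every PBS and every UNT kidney, whereas UNT and PBS kidneys overlapped. Means were 1.28 ± 0.502 (n = 12), 1.48 ± 0.692 (n = 11) and 3.99 ± 0.796 CPM (n = 11), and RGLS4326 vs PBS was 2.69-fold (log2 fold change 1.43, SE 0.22, a description). The lowest library held 12 reads of *Fat3*, so counting error is part of its spread, while the other 4 genes had at least 39 reads in every library.

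**Figure D1:**
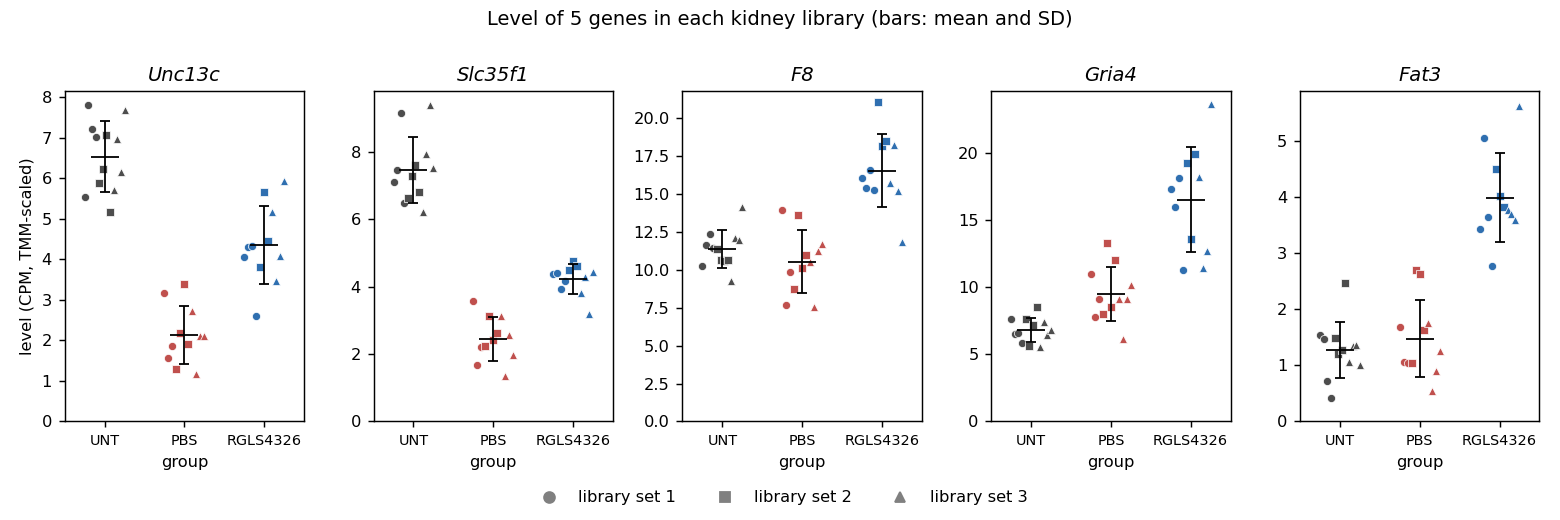
Level of each gene in each kidney library, in TMM-scaled CPM, by group (UNT n = 12, PBS n = 11, RGLS4326 n = 11), with marker shape for the library set and a bar for the mean and SD. *Unc13c* and *Slc35f1* in treated kidneys sit between PBS and UNT, at medians of 4.31 and 4.36 CPM, while *F8*, *Gria4* and *Fat3* in treated kidneys sit above both groups, at medians of 16.1, 17.3 and 3.77 CPM.

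The comparison with UNT addressed whether the genes returned to the normal level or passed it. These comparisons share the PBS or the RGLS4326 libraries with the contrast that chose the genes, so the choice favours low PBS and high RGLS4326 values in them. In PBS vs UNT, 3 of the 5 genes passed an adjusted p of 0.05, against 82.1% of all tested genes (43.1% higher, 39% lower). *Unc13c* was 3.06-fold lower in PBS than in UNT (log2 fold change -1.61, SE 0.14, adjusted p = 1.23e-12 by the quasi-likelihood test of edgeR with Benjamini-Hochberg adjustment). *Slc35f1* was 3.05-fold lower (-1.61, SE 0.11, edgeR adjusted p = 2.49e-15). *Gria4* was higher in PBS, by 0.48 on that scale (SE 0.12, edgeR adjusted p = 0.000434), and by 0.85 once the no-gene share entered the fit or 0.81 with the share of reads lacking a unique alignment. *F8* (-0.11, SE 0.09, edgeR adjusted p = 0.287) and *Fat3* (0.20, SE 0.22, edgeR adjusted p = 0.397) did not pass, which does not show that they were equal, and *Fat3* did pass once the no-gene share entered the fit (0.69, edgeR adjusted p = 0.032). With the share of reads lacking a unique alignment instead, *Fat3* was at -0.04 (edgeR adjusted p = 0.958).

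In RGLS4326 vs UNT, all 5 genes passed, against 77.7% of all tested genes (40.8% higher, 36.9% lower), 2 of them lower and 3 higher. *Unc13c* and *Slc35f1* remained lower than UNT, at log2 fold changes of -0.58 (SE 0.14, edgeR adjusted p = 0.000285) and -0.82 (SE 0.11, edgeR adjusted p = 2.71e-08). On the log2 scale, the treated level had covered 64.0% of the distance from PBS to UNT for *Unc13c* (jackknife SE 7.21 percentage points over the 34 libraries) and 48.9% for *Slc35f1* (SE 5.11). These shares are a description, since the difference that chose the genes enters them. Their SEs do not allow for that choice. The other genes were higher than UNT: *F8* by 0.54 (SE 0.09, edgeR adjusted p = 2.82e-06), *Gria4* by 1.27 (SE 0.12, edgeR adjusted p = 5.37e-12) and *Fat3* by 1.63 (SE 0.21, edgeR adjusted p = 1.47e-08). In fold terms the treated level was 1.46, 2.42 and 3.09 times the UNT level for these 3 genes. In this fit the 5 genes fell into 2 below normal and 3 above it. With the share of reads lacking a unique alignment as a covariate, *F8* did not pass (0.52, edgeR adjusted p = 0.0671) and *Unc13c* was at -0.92 (edgeR adjusted p = 0.0267).

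Within library sets, differences were taken between group means of log2 CPM. For RGLS4326 vs PBS they are a description only, since the same libraries chose the genes, and were 0.82, 1.12 and 1.21 for *Unc13c*, 0.82, 0.83 and 0.83 for *Slc35f1* and 0.63, 0.84 and 0.57 for *F8* in sets 1, 2 and 3. For *Gria4* it was 0.74, 0.76 and 0.89, and for *Fat3* 1.52, 1.11 and 1.93. PBS vs UNT was 0.47, 0.51 and 0.37 for *Gria4*, which did not pass in set 3 alone, and 0.40, 0.27 and -0.19 for *Fat3*. RGLS4326 vs UNT was -0.86, -0.40 and -0.52 for *Unc13c* and 0.47, 0.82 and 0.36 for *F8*. Fitted in set 2 alone, *Unc13c* was not distinguished from UNT (log2 fold change -0.41, edgeR adjusted p = 0.185), nor in set 3 alone (-0.51, adjusted p = 0.0923), and in set 3 alone *F8* was not (0.37, adjusted p = 0.11).

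**Figure D2:**
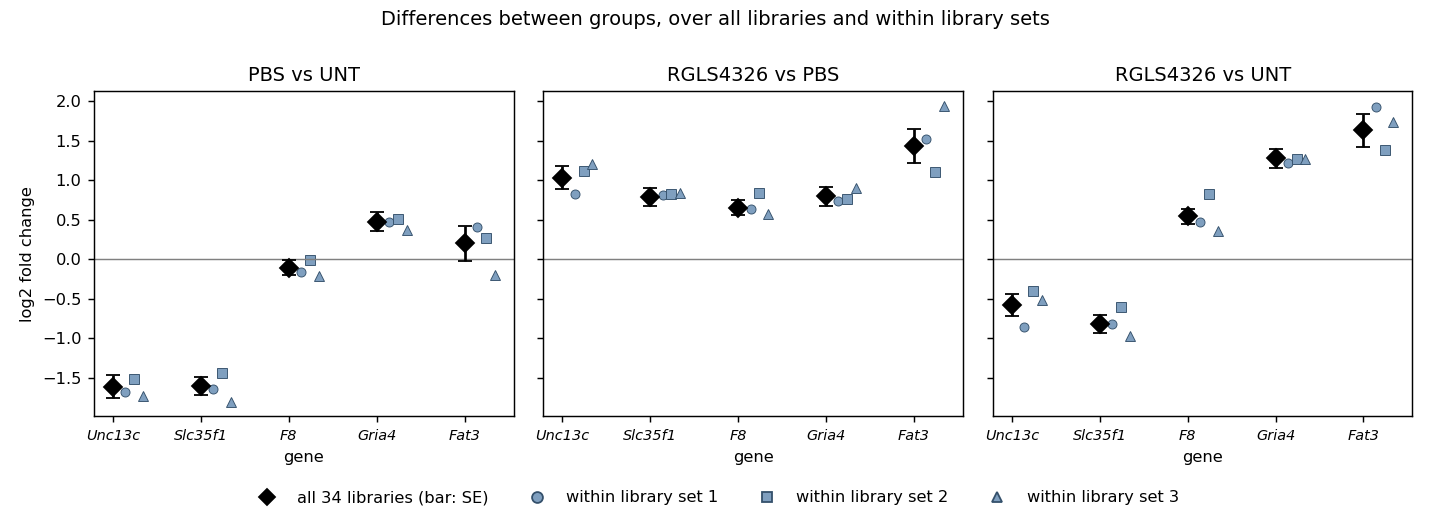
Log2 fold change of the 5 genes in PBS vs UNT, RGLS4326 vs PBS and RGLS4326 vs UNT, as black diamonds with SE from the fit of all 34 libraries and as small markers for the differences within each library set. In RGLS4326 vs UNT, *Unc13c* (-0.58) and *Slc35f1* (-0.82) are below the line of no difference and *F8* (0.54), *Gria4* (1.27) and *Fat3* (1.63) above it, in every set.

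Per length, as CPM per kilobase of exon (RPKM), *Slc35f1* was the most abundant of the 5 genes in UNT at 1.51 ± 0.198 RPKM (n = 12). *F8* (1.15 ± 0.125) and *Gria4* (1.08 ± 0.144) followed and differed by less than their SDs, then *Unc13c* at 0.744 ± 0.099 and *Fat3* at 0.0597 ± 0.0234 RPKM. In RGLS4326 kidneys *Gria4* led at 2.62 ± 0.62 RPKM (n = 11), followed by *F8* (1.67 ± 0.242), *Slc35f1* (0.854 ± 0.089), *Unc13c* (0.495 ± 0.109) and *Fat3* (0.186 ± 0.037). In PBS kidneys the order was that of treated kidneys, from *Gria4* at 1.504 ± 0.322 to *Fat3* at 0.0689 ± 0.0322 RPKM (n = 11).

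The share of reads in no gene was above every PBS library in 4 RGLS4326 libraries and at 4.94 to 8.92% in the other 7. Whether this share moved with treatment was not tested, nor was its part in the differences. Without the 4 RGLS4326 libraries above the PBS range, the log2 fold change in RGLS4326 vs PBS was 0.91 for *Unc13c*, 0.71 for *Slc35f1*, 0.61 for *F8*, 0.66 for *Gria4* and 1.33 for *Fat3*. As a covariate, this share left it at 0.87, 0.67, 0.57, 0.60 and 1.19 in that order. Over all genes the same settings lowered the number called from 5280 (33.8% of those tested, 15.3% higher and 18.5% lower) to 337 and 89. In the 7 remaining treated libraries, 6 lay above every PBS library for *Unc13c* and *Slc35f1*, 7 for *F8* and *Fat3*, and 4 for *Gria4*. Against UNT, the fit without the 4 libraries kept both lower genes (*Unc13c* -0.70, *Slc35f1* -0.89) and the 3 higher ones (*F8* 0.50, *Gria4* 1.14, *Fat3* 1.52). Leaving out the 2 PBS libraries with *Th* and *Dbh* gave 0.99, 0.71, 0.62, 0.78 and 1.36 in RGLS4326 vs PBS, and 2842 genes called.

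**Figure D3:**
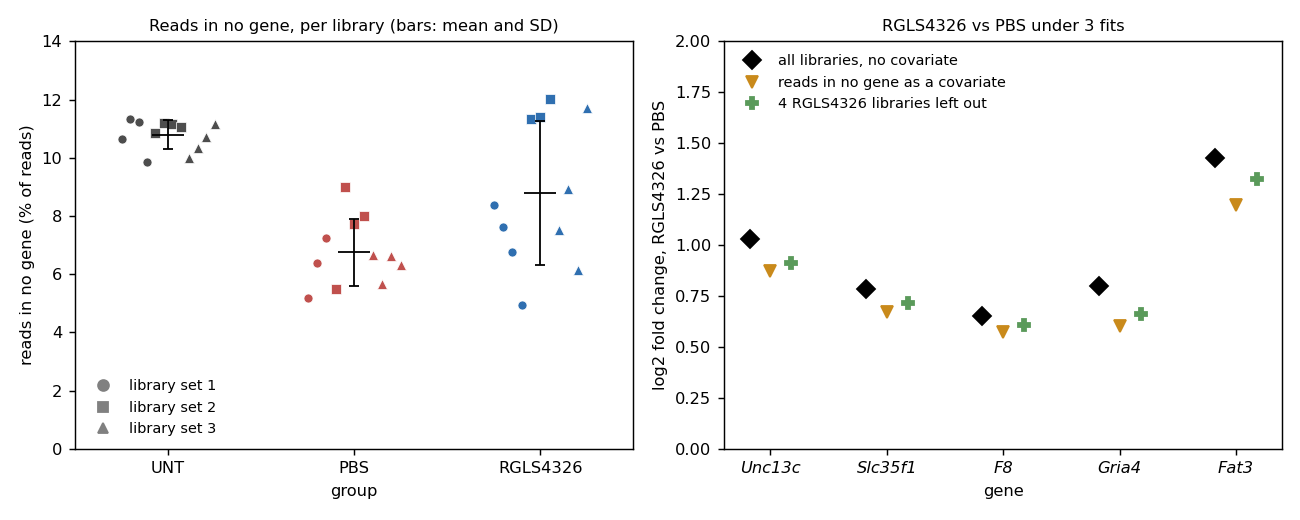
Left, reads in no gene as a percentage of reads in each library, by group, with marker shape for the library set and bars for the mean and SD. Right, log2 fold change in RGLS4326 vs PBS of the 5 genes in 3 fits, a description since this contrast chose the genes. The values lie between 0.57 and 1.43 with all libraries, with the share as a covariate and without the 4 RGLS4326 libraries above every PBS library.

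The 5 genes shared a long genomic span and a low level, which the choice did not name. Their spans from first to last annotated base were 489.5 kb (*Unc13c*), 421 kb (*Slc35f1*), 209.9 kb (*F8*), 378 kb (*Gria4*) and 591 kb (*Fat3*), against a median of 23.5 kb over the 14828 tested genes matched to the annotation. All 5 were longer than 95.1% of these genes, and *Fat3* was longer than 99.3%. The raised genes ranked around them were shorter, at 51603 bases for *Mink1*, 24878 for *Ginm1*, 81045 for *Naalad2*, 27980 for *Ecm2* and 58038 for *Jam3*. Their mean levels lay between the 15.2 percentile (*Fat3*) and the 36.5 percentile (*F8*) of tested genes. Their exons were less unusual in length, from the 58.6 percentile for *Slc35f1* to the 99.5 percentile for *Fat3*.

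Among the other 719 tested genes of at least the span of *F8*, 214 rose (29.8%) and 26 fell (3.62%) in RGLS4326 vs PBS, with a median log2 fold change of 0.15. Over all tested genes 15.3% rose and 18.5% fell, with a median of 0.0022. Among long genes whose mean level lay within that of the 5 genes, 56 of 185 rose (30.3%), against 417 of 2931 (14.2%) shorter genes in the same range of levels. When the matched genes were divided by span into 10 classes of equal size, the median went from -0.15 in the class of shortest genes to 0.13 in that of the longest, and the share that rose from 5.33% to 26.8%, both growing with every class. The median of the long genes was 0.12 once reads in no gene entered as a covariate, 0.15 without the 4 RGLS4326 libraries and 0.12, 0.13 and 0.21 in library sets 1, 2 and 3. In the same order of settings, the class of shortest genes was at -0.098, -0.13, -0.072, -0.18 and -0.23. In PBS vs UNT the medians had no such steady course, with 0.055 in the shortest, -0.0035 in class 7 and 0.17 in the longest class. The spans of all these genes are a description, with no test across genes. Of the long genes with an annotated 3′UTR, 33.9% held a miR-17 seed match, against 21.9% of all tested genes, without allowance for the length of the 3′UTR. Without the 5 genes, 25.6% of tested genes with a match rose and 9.77% fell in RGLS4326 vs PBS. Of those with a 3′UTR but no match, 12.0% rose and 21.7% fell, also a description.

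**Figure D4:**
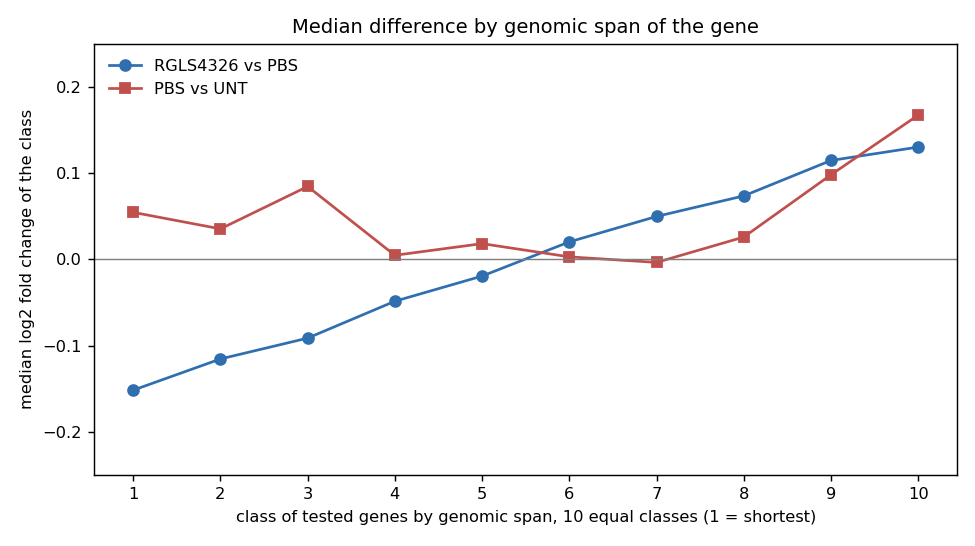
Median log2 fold change of tested genes in each of 10 equal classes of genomic span, from the shortest (1) to the longest (10), in RGLS4326 vs PBS and in PBS vs UNT. The RGLS4326 vs PBS median runs from -0.15 to 0.13, and all 5 genes belong to the longest class.

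Genes whose levels ran most like those of each gene were sought by Pearson's r of log2 CPM over all 34 libraries, a measure that reflects differences between groups and library composition. For *Unc13c* they were *Slc35f1* (r = 0.92), *Cxcl12*, a chemokine (0.92), and *Jam3*, a junctional adhesion molecule (0.92). For *Slc35f1* they were *Pls1*, an actin-bundling protein of microvilli (0.97), *Ptprd*, a receptor phosphatase (0.97), and *Ankrd13c* (0.96), and *Unc13c* stood at rank 173. *F8* ran with *Inpp4b*, a lipid phosphatase (0.88), *Csgalnact1*, an enzyme of chondroitin sulfate synthesis (0.87), and *Thsd7a* (0.84). *Gria4* ran with *Frem1* (0.92) and *Abi3bp* (0.92), both of extracellular matrix, and with *Naalad2* (0.89). *Fat3* ran with another FAT cadherin, *Fat4* (0.87), with *Frem1* (0.87) and with *Gria4* (0.86).

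After the group means were removed, which leaves differences among mice of a group, other genes came first for most of them. They were *Zfp964* (r = 0.76), *Reck* (0.73) and *Asb1* (0.71) for *Unc13c*, and *Pls1* (0.84), *Ecm2* (0.82) and *Sepsecs* (0.81) for *Slc35f1*. For *F8* they were *Inpp4b* (0.82), *Gucy1a2* (0.78) and *Ube3a* (0.77), for *Gria4* *Usp37* (0.70), *Mphosph9* (0.69) and *1700020D05Rik* (0.68), and for *Fat3* *Syne1* (0.76), *Fat4* (0.75) and *Frem1* (0.73). *Inpp4b* was thus named with *F8*, and *Fat4* and *Frem1* with *Fat3*, both before and after, also within the 5 highest by Spearman. *Pls1* was named with *Slc35f1* both times by Pearson, but was not within the 5 highest by Spearman. *Gria4* and *Fat3* were then at r = 0.60 with each other, against 0.86 over all libraries, and *Slc35f1* and *F8* at 0.67, against 0.27.

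Within groups, 45 relations were tested by permutation (100000 resamples, two-sided) and adjusted together. In PBS kidneys all 10 pairs of the 5 genes correlated positively, from r = 0.52 to 0.88 with a median of 0.73 (n = 11). The pairs that passed were *F8* with *Gria4* (Pearson's r = 0.88, permutation adjusted p = 0.0189, Spearman's rho = 0.86, adjusted p = 0.0376) and *Slc35f1* with *F8* (r = 0.85, permutation adjusted p = 0.0263, rho = 0.76, adjusted p = 0.0901). Without the 2 libraries farthest from the median they were at r = 0.80 and 0.70. In UNT kidneys the pairs ranged from -0.51 to 0.67 and in RGLS4326 kidneys from -0.27 to 0.67, and none passed. Whether the correlations differ between groups was not tested, and the library sets, with 3 or 4 libraries of a group, are too small for values of their own. Against the percentage of reads in no gene, the 5 genes had r from 0.25 to 0.44 in UNT and 0.26 to 0.63 in PBS kidneys, none past the adjustment. In RGLS4326 kidneys the 5 genes had r from 0.26 to 0.69, all positive, and *Slc35f1* passed by rank (Spearman's rho = 0.85, permutation adjusted p = 0.0376, r = 0.69, adjusted p = 0.0662, and r = 0.78 without the 2 farthest libraries). The treated libraries fall into 4 with a high share and 7 at 4.94 to 8.92%, so these values span a gap. Within the 7, a division chosen after seeing the data, *Slc35f1* had r = 0.44 (exact permutation p = 0.371) and rho = 0.61 (exact permutation p = 0.167), with r = 0.85 without the 2 farthest libraries. None of the 5 genes passed there, at adjusted p of 0.28 or above over 5 relations by exact permutation. *Slc35f1* was at 4.58 ± 0.15 CPM in the 4 libraries and 4.02 ± 0.422 CPM in the 7. *Unc13c* averaged 4.97 ± 1.01 and 4.01 ± 0.796 CPM, *F8* 17.4 ± 3.91 and 16.1 ± 1.08 CPM, *Gria4* 19.1 ± 4.15 and 15.0 ± 3.12 CPM, and *Fat3* 4.49 ± 0.808 and 3.71 ± 0.685 CPM. How many of all tested genes differ so between the 4 and the 7 was not counted.

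Relatives and partners of each gene were counted next, without the gene itself, beside 15.3% higher and 18.5% lower over all tested genes. The part of reads in no gene in these counts was not tested, and the following values bear on it. Of the 22 calls in the 5 family lists in RGLS4326 vs PBS, 0 were kept with that share as a covariate and 1, *F13b*, without the 4 RGLS4326 libraries, with 7 treated libraries left. All 22 kept their direction, and their median size on the log2 scale went from 0.48 to 0.30 in both settings. Without the PBS libraries with *Th* and *Dbh*, 14 were kept and the median size was 0.42. Of 34 genes of Munc13 and vesicle release, 26 were tested, of which 3 rose and 3 fell in RGLS4326 vs PBS, with a median log2 fold change of 0.12. *Stxbp5l*, a tomosyn that binds syntaxin, rose from 2.34 ± 0.895 to 4.10 ± 1.60 CPM (0.81, SE 0.19, edgeR adjusted p = 0.00465), and *Snap23*, a SNARE of non-neuronal cells, rose by 0.26 (SE 0.07, edgeR adjusted p = 0.0103). *Napa*, which recycles SNARE complexes, fell by 0.22 (edgeR adjusted p = 0.0131). Of the Munc13 genes themselves, *Unc13d*, which acts in granule release of blood cells, fell by 0.40 (edgeR adjusted p = 0.0197), while *Unc13a* (-0.12) and *Unc13b* (-0.06) did not pass. *Unc13b* was the most abundant with 27.3 ± 1.99 CPM in UNT against 58.8 ± 6.76 CPM in PBS, and rose in PBS vs UNT (1.11, SE 0.06, edgeR adjusted p = 2.29e-19), opposite to *Unc13c*.

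Of the other SLC35F carriers, 4 were tested in RGLS4326 vs PBS. With edgeR 0 rose, also 0 at an unadjusted p of 0.05, and 1 fell, namely *Slc35f6* (log2 fold change -0.28, SE 0.07, edgeR adjusted p = 0.00472). In PBS vs UNT *Slc35f2* (-0.43) and *Slc35f3* (-0.59) fell and *Slc35f5* (0.64) and *Slc35f6* (0.52) rose, each by less than *Slc35f1*. *Slc35f4* was below the filter, with a mean of at most 0.00333 CPM in any group.

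Of 19 genes around factor VIII, 15 were tested, of which 3 rose and 3 fell in RGLS4326 vs PBS (median 0.0073). *F13b*, a subunit of factor XIII, rose from 20.2 ± 12.8 to 41.6 ± 10.6 CPM (1.04, SE 0.25, edgeR adjusted p = 0.00426). *Stab2*, a scavenger receptor that clears factor VIII with von Willebrand factor, rose from 2.57 ± 0.888 to 4.22 ± 0.789 CPM (0.71, SE 0.18, edgeR adjusted p = 0.00505). *F10* (-1.03, edgeR adjusted p = 0.00648) and *F13a1* (-0.85, edgeR adjusted p = 0.00964) fell. *Vwf*, the carrier of factor VIII, was at 22.2 CPM in PBS and 20.2 CPM in RGLS4326 kidneys (-0.13, edgeR adjusted p = 0.438).

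Of 26 genes of AMPA and kainate receptors and their partners, 18 were tested, of which 3 rose and 1 fell (median 0.18). *Grip2*, a scaffold of AMPA receptors, rose from 1.79 ± 0.685 to 3.44 ± 1.53 CPM (0.93, SE 0.20, edgeR adjusted p = 0.00296), and *Gria3*, another AMPA receptor subunit, from 9.37 ± 2.51 to 14.3 ± 4.48 CPM (0.60, SE 0.15, edgeR adjusted p = 0.00547). *Grik1*, a kainate receptor subunit, rose by 0.59 at a level of 0.562 CPM (edgeR adjusted p = 0.0416), and *Olfm1* fell by 0.16 (edgeR adjusted p = 0.0482). Unlike *Gria4*, *Gria3* was lower in PBS than in UNT (-1.67, SE 0.15, edgeR adjusted p = 1.79e-12) and was still lower in RGLS4326 vs UNT (-1.06, edgeR adjusted p = 5.09e-08). *Gria1* was below the filter and *Gria2* was at 0.277 CPM in treated kidneys.

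Of 24 genes of FAT, Dachsous and planar polarity, 22 were tested, of which 4 rose and 1 fell (median 0.048). *Fat4*, the FAT cadherin that pairs with Dachsous, rose from 19.5 ± 5.62 to 28.9 ± 2.82 CPM (0.56, SE 0.14, edgeR adjusted p = 0.0054), and its ligand *Dchs1* from 29.8 ± 6.76 to 37.9 ± 1.94 CPM (0.35, SE 0.12, edgeR adjusted p = 0.0283). *Prickle2* (0.29, edgeR adjusted p = 0.0124) and *Fzd3* (0.32, edgeR adjusted p = 0.0147), of the planar polarity pathway, rose and *Scrib* fell by 0.15 (edgeR adjusted p = 0.0495). *Fat1* (0.07) and *Fat2* (-0.22) did not pass. *Fat4* was also higher in RGLS4326 than in UNT (1.10, edgeR adjusted p = 6.84e-09), as *Fat3* was.

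Marker lists of kidney and other cells were counted in the same contrast, where 15.3% of all tested genes were higher and 18.5% lower, and the part of cell composition in the differences was not tested. Beside *F8*, the endothelial markers had 7 of 14 higher and 1 lower in RGLS4326 vs PBS (median 0.17), and their summed level was 1001 to 1216 CPM in UNT, 821 to 1077 CPM in PBS and 905 to 1160 CPM in RGLS4326 kidneys. In RGLS4326 vs UNT, where *F8* was higher by 0.54, 4 of the 14 endothelial markers were higher and 7 lower (median -0.15), against 40.8% higher and 36.9% lower over all tested genes. The higher ones were *Lyve1* (1.92), *Cdh5* (0.70), *Pecam1* (0.51) and *Erg* (0.50), and the lower ones *Emcn* (-0.70), *Egfl7* (-0.48), *Tek* (-0.44), *Ehd3* (-0.37), *Esam* (-0.25), *Robo4* (-0.21) and *Tie1* (-0.15). Beside *Unc13c* and *Slc35f1*, all 10 proximal tubule markers fell in PBS vs UNT (median -2.64), against 39% of all tested genes lower and 43.1% higher there, and 6 of 10 rose in RGLS4326 vs PBS (median 0.61), with sums of 11855 to 16420, 1511 to 4286 and 2693 to 4562 CPM in UNT, PBS and RGLS4326. Of 9 markers of the loop of Henle and distal tubule, 8 fell in PBS vs UNT (median -1.85), and 4 rose and 1 fell in RGLS4326 vs PBS (0.31). In PBS vs UNT 9 of 14 endothelial markers were also lower and 3 higher (median -0.32), and 5 of 7 podocyte markers lower and 2 higher (-0.62). Of collecting duct markers 7 of 11 were higher there and 4 lower, and of macrophage and T cell markers 10 of 11 higher and 0 lower.

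The 10 stromal markers all rose in PBS vs UNT (median 2.14), as *Gria4* did and 43.1% of all tested genes (39% fell), whereas *Fat3* did not pass there. In RGLS4326 vs PBS 1 of the 10, *Pdgfra*, rose (0.53, edgeR adjusted p = 0.00265) and the other 9 were not called, against 15.3% of all tested genes higher and 18.5% lower, with sums of 774 to 1745, 3971 to 7936 and 4963 to 7244 CPM. Markers of neurons and nerve, named here because *Unc13c* and *Gria4* are known from neurons, had 1 of 15 higher and 3 lower (median 0.015), with sums of 27.8 to 37.6, 66.3 to 118 and 74.3 to 88.6 CPM. In PBS vs UNT 10 of the 15 were higher and 3 lower (median 1.01), among them *Uchl1*, from 7.24 to 32.5 CPM, *Ncam1*, from 9.58 to 41.8 CPM, and *Tubb3*, from 0.0755 to 2.77 CPM. *Rbfox3*, of neuronal nuclei, fell from 0.700 to 0.502 CPM (-0.47, edgeR adjusted p = 0.0302), and *Snap25*, a neuronal SNARE, was below the filter. The remaining lists had 5 of 7 podocyte markers higher and 1 lower (median 0.19), 0 of 11 collecting duct markers higher and 5 lower (-0.38), and 0 of 11 macrophage and T cell markers higher and 5 lower (-0.45). At an unadjusted p of 0.05 from edgeR, 0 collecting duct markers and 1 macrophage and T cell marker were higher. Of the 40 calls over the 8 marker lists, 3 were kept once the no-gene share entered the fit, 10 without the 4 RGLS4326 libraries and 26 without the PBS libraries with *Th* and *Dbh*.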

How the data were processed

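The authors trimmed paired-end reads of stranded polyA libraries, mapped them with STAR to GRCm38 (mm10) and counted unique reads per gene with HTSeq (version 0.6.1, per the submitters' processing notes), and the deposited table of each mouse gives these counts without normalization. The annotation and strand setting of the counting are not given in the sources used here. Depth is stated with the results. Groups came from the labels. The 5 genes and all gene lists were chosen with earlier results of these data known. Other genes named were those next in rank by p, the 3 with the highest r to each gene, and in each family list the called genes of smallest p, up to 4. *Mink1*, *Unc13a*, *Unc13b* and *Vwf*, *Scrib*, *Fat1*, *Fat2*, *Gria1*, *Gria2*, *Th*, *Dbh* and the named cell type markers were singled out after their values were seen.

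Counts were scaled by TMM and tested with edgeR (version 4.0.16, R 4.3.3) by its two-sided quasi-likelihood test after filterByExpr, in 1 fit of 34 libraries with 3 groups. Adjustment (Benjamini-Hochberg) ran over 15644 genes, with calls at 0.05. Log2 CPM used a prior count of 2. Totals that name no gene were left out of library sizes. The procedure was tested on simulated data. Spans, exons and 3′UTRs came from GENCODE M21. No libraries were identical (0 pairs). Correlations used scipy 1.17.1 and figures matplotlib 3.10.9. As no source ties mice to litters, p-values measure the spread between these samples. Alternatives were DESeq2 (version 1.42.0), its size factors, no filter on low counts, the fit of both groups alone, covariates, library sets and leaving out each library. Leaving out the RGLS4326 libraries rich in reads in no gene, or the PBS libraries with *Th* and *Dbh*, and correlating within 7 RGLS4326 libraries, was chosen after seeing the data.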

Additional observations from a re-analysis of the deposited data

How the results depend on the processing

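Leaving out each library moved the number of genes called from 4023 to 6205 in RGLS4326 vs PBS, from 12687 to 12886 in PBS vs UNT and from 12015 to 12353 in RGLS4326 vs UNT, and ended no call of the 5 genes. For RGLS4326 vs PBS that is a description, since this contrast chose the 5 genes. In RGLS4326 vs PBS, 89 genes were called once the no-gene share entered the fit, 57 in library set 1 alone, 4049 in set 2 alone and 0 in set 3 alone (edgeR, with 2825 at an unadjusted p of 0.05; DESeq2 was not run on single sets). In set 2 all 3 treated libraries lay above every PBS library in reads in no gene. The count was 337 without the 4 RGLS4326 libraries rich in such reads and 2842 without the PBS libraries with *Th* and *Dbh*, both chosen after seeing the data. With reads lacking a unique alignment as a covariate, 7338 genes were called in PBS vs UNT and 7316 in RGLS4326 vs UNT. The cause was not tested.

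No log2 fold change of the 5 genes changed direction where it had passed, which for RGLS4326 vs PBS is a description. In sets 1 and 3 alone none of the 5 passed in RGLS4326 vs PBS. *Gria4* did not pass in PBS vs UNT in set 3 (0.40, edgeR adjusted p = 0.145), while *Fat3* passed in PBS vs UNT with the no-gene covariate (0.69, edgeR adjusted p = 0.032). With reads lacking a unique alignment as a covariate, *Fat3* was at -0.04 in PBS vs UNT (edgeR adjusted p = 0.958). The covered share of *Unc13c* moved between 49.0% (set 1) and 72.9% (set 2), and that of *Slc35f1* reached 57.2% in set 2. Of the 3 genes named as most like each gene, those within the 5 highest by Spearman numbered 3 for *Unc13c*, 1 for *Slc35f1*, 1 for *F8*, 2 for *Gria4* and 2 for *Fat3* over all libraries, and 3, 0, 2, 1 and 2 with group means removed.

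Same-numbered libraries correlated at -0.33 to 0.41 over 33 pairs (median -0.019, 9 over 0.1), and 3 of 33 correlated best with their own number, so the numbers do not pair the samples. The replicate block gave 5098, 12781 and 12162 genes in RGLS4326 vs PBS, PBS vs UNT and RGLS4326 vs UNT and changed no call of the 5 genes, for RGLS4326 vs PBS again a description.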
